A study of Mus musculus with 24 samples.

Results

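Poly(ADP-ribose) polymerases (PARPs) that are linked to the interferon response, together with the ubiquitin ligase Dtx3l, were followed through MIN6 cells with altered miR-146a-5p. The set was chosen by gene symbol, with earlier results of these data known, and held 8 of the 17696 genes listed. Its interferon-linked members were Parp9, Parp10, Parp11, Parp12, Parp14 and Dtx3l, and its constitutive members were Parp1 and Parp2. All 8 were measured in every one of the 24 RNA-seq libraries, with 287 to 44819 reads per gene and library. MIN6 is a mouse insulinoma line used as a model of the β cell. The control line (Scr) carried a scrambled sequence, the ZIP line an antisense inhibitor of miR-146a-5p, and the OE line an overexpression construct for it. Each line was sequenced without cytokines and after 24 h of exposure to IL-1β (5 ng/ml), IFNγ (100 ng/ml) and TNFα (10 ng/ml) together (Scr+Cy, ZIP+Cy and OE+Cy), with 4 libraries per group. All lines carried a lentiviral vector, were selected with puromycin and were expanded from single clones. Scr and ZIP shared a vector backbone with copGFP, whereas OE had another backbone with Turbo RFP, so the effects of microRNA, vector and clone cannot be told apart. The microRNA itself was not analysed here.

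PARP enzymes use NAD to attach ADP-ribose to proteins or nucleic acids. Parp1 and Parp2 sense DNA breaks and build poly(ADP-ribose) chains, and strong activation of Parp1 is known to drain NAD from injured β cells. Most of the interferon-linked members attach single ADP-ribose units, Parp9 acts in a complex with Dtx3l, and their genes are known targets of interferon signalling.

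The libraries held 26657795 to 37168207 reads in genes (median 30701018.5). Levels are given as CPM, the share of a library's reads scaled to a common library size. All 7 β cell markers examined were present, and their summed level lay between 15675 and 41560.2 CPM over the libraries. Of these, 5 were called lower in OE+Cy than in OE and none was called in the other lines with cytokines. Of all 17696 genes, 1304 were called lower with cytokines in OE, 285 in Scr and 634 in ZIP. Of 7 leukocyte markers, 4 were listed, and their sum lay between 0.62 and 4.52 CPM; Ptprc and Csf1r were at 0 in all OE+Cy libraries. In bulk RNA, fewer cells that express a gene and less RNA per cell cannot be told apart. Replicates were not stated to be separate cultures, so p values measure only the spread between these libraries.

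Cytokines raised all 6 interferon-linked members in every line, while Parp1 and Parp2 passed the calling thresholds in none. Calls needed a change of 1.5-fold or more together with an adjusted p value under 0.05 in edgeR's quasi-likelihood test (Benjamini-Hochberg over all genes). Of all genes, 5.96% were called higher in Scr+Cy than in Scr, 6.12% in ZIP+Cy than in ZIP, and 11.8% in OE+Cy than in OE. The median log2 fold change of the 6 members was 2.88, 2.92 and 3.75 in Scr, ZIP and OE, against 0.00, −0.01 and 0.02 over all genes. For each of the 6 members and in each line, the 4 treated libraries all lay above the 4 untreated ones. Libraries separated in this direction for 11.5%, 13.3% and 20.7% of all genes. Because the members were chosen with earlier results known, these shares give scale and are not an independent test.

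**Figure D1:**
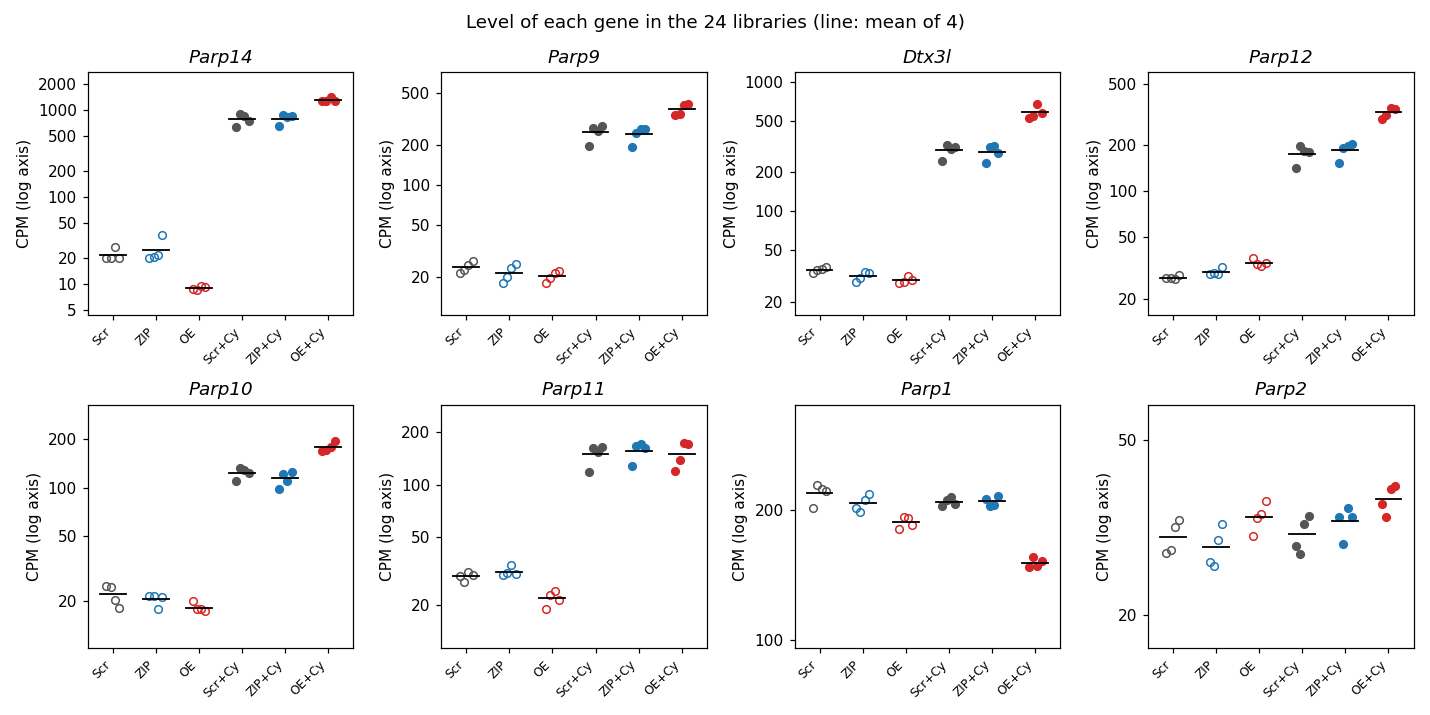
Level of each of the 8 genes in CPM (logarithmic axes, each with its own range) in the 24 libraries, by group; open points are libraries without cytokines, filled points libraries with them, and lines are means of 4. The 6 interferon-linked genes sit higher with cytokines in every line, Parp14 sits lowest in OE before treatment and highest in OE+Cy, and Parp1 sits lowest in OE+Cy.

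Parp14, a mono-ADP-ribosyltransferase known to act in STAT6-dependent gene activation, had the widest range of the set. Without cytokines it stood at 19.8, 20.2, 26.5 and 19.9 CPM in the Scr libraries and at 19.8, 20.6, 21.6 and 37.1 CPM in the ZIP libraries. The OE libraries were lower, at 8.83, 8.6, 9.49 and 9.4 CPM. With cytokines it reached 631, 902, 851 and 756 CPM in Scr+Cy. The ZIP+Cy values of 654, 867, 822 and 847 CPM overlapped these. In OE+Cy it reached 1267, 1258, 1415 and 1279.7 CPM, above every other library. The line with the lowest starting level therefore had the highest level after treatment. Parp14 rose 36.4-fold in Scr (log2 fold change 5.19, SE 0.174, adjusted p = 8.49e-17 in edgeR). The rise was 32.2-fold in ZIP (5.01, SE 0.173, adjusted p = 1.31e-16) and 144-fold in OE (7.17, SE 0.192, adjusted p = 8.07e-19).

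Levels of different genes were compared per length, as CPM per kb of annotated exon. In Scr, Parp14 was the lowest of the set at 2.32 ± 0.352 CPM per kb and Parp1 the highest at 41.4 ± 2.15 (SD, n = 4). Parp2 (8.29), Parp12 (6.83), Dtx3l (6.12), Parp10 (5.12), Parp9 (4.9) and Parp11 (4.21 CPM per kb) lay between them. In Scr+Cy the order changed, and Parp14 was the highest at 84.4 ± 12.8 CPM per kb. Dtx3l (52 ± 6.37) and Parp9 (51.6 ± 7.51) followed at levels closer to each other than their spread, then Parp12 at 43.7 ± 5.86 CPM per kb. Parp1, at 39.5 ± 0.797 CPM per kb, had moved from the top of the order to the middle. In OE+Cy, Parp14 stood at 140.2 ± 7.97 CPM per kb, Dtx3l at 102 ± 11.7 and Parp1 at 28.5 ± 0.745.

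Parp9, which binds ADP-ribose through macrodomains, and Dtx3l, its RING-type ubiquitin ligase partner, lie head to head on chromosome 16. In the mm10 coordinates of the gene table, Parp9 spans chr16:35938470-35972621 on the plus strand and Dtx3l chr16:35926515-35939027 on the minus strand, so that their starts lie 557 bp apart and the start regions overlap. Their annotated exons share 458 bp (GENCODE M21), 9.4% of Parp9 and 8% of Dtx3l, so the counting could have divided some reads between them. Dtx3l is shown with its start region (RefSeq, GRCm38.p6, chr16:35938978-35939277, minus strand, 250 bases before to 50 after the start) because it spans part of the shared exonic segment (chr16:35938694-35939151) and the bases upstream of Dtx3l. No capitals are used in it, since neither motif described for Parp11 was found.
Dtx3l start region: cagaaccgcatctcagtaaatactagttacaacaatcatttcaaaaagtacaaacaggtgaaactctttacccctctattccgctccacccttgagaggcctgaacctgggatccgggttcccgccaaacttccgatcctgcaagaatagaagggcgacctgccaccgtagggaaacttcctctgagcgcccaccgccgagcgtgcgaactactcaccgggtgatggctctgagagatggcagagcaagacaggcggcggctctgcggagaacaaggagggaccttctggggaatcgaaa

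Parp9 stood at 21.3, 22.7, 24.8 and 26.5 CPM in Scr and at 198, 272, 257 and 279 CPM in Scr+Cy. In OE it stood at 18.2, 19.8, 21.4 and 22.2 CPM, and in OE+Cy at 339.9, 347, 404 and 411 CPM. The 3 untreated groups overlapped in Parp9, as did Scr+Cy and ZIP+Cy, and OE+Cy lay above all. Dtx3l stood at 33, 34.8, 35.7 and 36.7 CPM in Scr and at 245, 327, 304 and 315 CPM in Scr+Cy. Its OE libraries held 27.7, 28.1, 31.6 and 29.4 CPM, and its OE+Cy libraries 528, 547, 678 and 576 CPM. The ordering of the groups was as in Parp9, except that the untreated OE libraries of Dtx3l lay below all Scr libraries. In Scr, Parp9 rose 10.5-fold (log2 fold change 3.40, SE 0.127) and Dtx3l 8.49-fold (3.09, SE 0.104). In ZIP the rises were 11.2-fold (3.49, SE 0.128) and 9.15-fold (3.19, SE 0.105), and in OE 18.4-fold (4.20, SE 0.131) and 19.9-fold (4.32, SE 0.11). All 6 adjusted p values lay between 3.34e-19 and 4.51e-16.

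Parp12, a mono-ADP-ribosyltransferase with CCCH zinc fingers and known antiviral activity, was at 27.1, 27.1, 26.7 and 28.4 CPM in Scr and at 141, 195, 183 and 179 CPM in Scr+Cy. It was the only interferon-linked member whose OE libraries were all above the Scr libraries before treatment (22.7% of all genes), at 36.9, 33.4, 32.4 and 34 CPM. Its OE+Cy libraries held 294, 312, 349.5 and 343 CPM. Parp12 rose 6.4-fold in Scr (log2 fold change 2.68, SE 0.0932), 6.26-fold in ZIP (2.65, SE 0.0933) and 9.5-fold in OE (3.25, SE 0.0945). Parp10, a mono-ADP-ribosyltransferase with ubiquitin-binding motifs, was at 24.8, 24.4, 20.3 and 18.1 CPM in Scr and at 110.1, 133, 129.9 and 124 CPM in Scr+Cy. Its OE+Cy libraries, at 169, 172, 178 and 194 CPM, lay above all others. Parp10 rose 5.67-fold in Scr (2.50, SE 0.0952), 5.62-fold in ZIP (2.49, SE 0.0961) and 9.85-fold in OE (3.30, SE 0.0982). Adjusted p values of Parp12 and Parp10 were at most 7.91e-16.

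Parp11, a mono-ADP-ribosyltransferase with a WWE domain that is found at the nuclear envelope, had the smallest rise of the 6. It stood at 29.7, 27.5, 31.2 and 29.9 CPM in Scr and at 118, 163, 155 and 165 CPM in Scr+Cy. Its OE libraries were lower, at 19.1, 22.9, 24.2 and 21.6 CPM, but the OE+Cy libraries, at 120.3, 138, 173 and 172 CPM, covered the same range as Scr+Cy. Parp11 was thus the interferon-linked member without a separate OE+Cy group. It rose 5.08-fold in Scr (log2 fold change 2.35, SE 0.12, adjusted p = 1.48e-13), 5.01-fold in ZIP (2.33, SE 0.12, adjusted p = 1.78e-13) and 6.88-fold in OE (2.78, SE 0.122, adjusted p = 4.5e-15).

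Promoter sequence (RefSeq, GRCm38.p6) was found for 5 members: Parp1, Parp2, Parp11, Parp12 and Dtx3l. Windows of 300 bp were searched on both strands for TTCNNNGAA, the core of the interferon-gamma-activated site (GAS), and for a form of the interferon-stimulated response element (ISRE), a repeat of GAAA after a gap of 2 bases. GAS letters occurred in 8.3% of all 32851 promoter windows and ISRE letters in 3.44%. Parp11 held both in the window of its upstream start and neither in that of its other start, and the other 4 genes held none. The Parp11 window (chr6:127446590-127446889, plus strand) is shown because both matches fall there, with the matched bases in capitals. The ISRE match TTTCGATTTC begins 44 bp before the start and the GAS match TTCTTGGAA 37 bp before it, so that they overlap. A match is a description of letters, and no binding was measured.
Parp11 upstream promoter: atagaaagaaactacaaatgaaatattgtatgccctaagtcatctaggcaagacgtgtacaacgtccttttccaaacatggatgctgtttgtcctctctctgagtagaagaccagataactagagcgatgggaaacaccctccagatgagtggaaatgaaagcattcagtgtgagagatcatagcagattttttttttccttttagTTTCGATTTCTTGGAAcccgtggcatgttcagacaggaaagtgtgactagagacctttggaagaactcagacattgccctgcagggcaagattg

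Parp1 and Parp2, the constitutive members, were measured as genes not known for an interferon response. Parp1 stood at 203, 229, 223 and 221 CPM in Scr and at 205, 211, 214 and 206 CPM in Scr+Cy. Its log2 difference with cytokines was −0.07 in Scr (95% interval −0.16 to 0.02, adjusted p = 0.335 in edgeR) and 0.02 in ZIP (−0.08 to 0.11, adjusted p = 0.845). In OE, Parp1 stood at 180.5, 192, 192 and 185 CPM, and in OE+Cy at 147, 156, 148 and 152 CPM, the lowest of all groups and without overlap, as for 19.5% of all genes between these groups. That difference was −0.31 (SE 0.0437, adjusted p = 2.58e-06), within the fold change limit. Parp2 ranged from 25.8 to 39.2 CPM over all libraries, and every group overlapped its neighbour in the order of levels. Its log2 differences with cytokines were 0.02, 0.20 and 0.14 in Scr, ZIP and OE (adjusted p = 0.921, 0.0902 and 0.2). The intervals allowed at most 0.38, in ZIP.

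**Figure D2:**
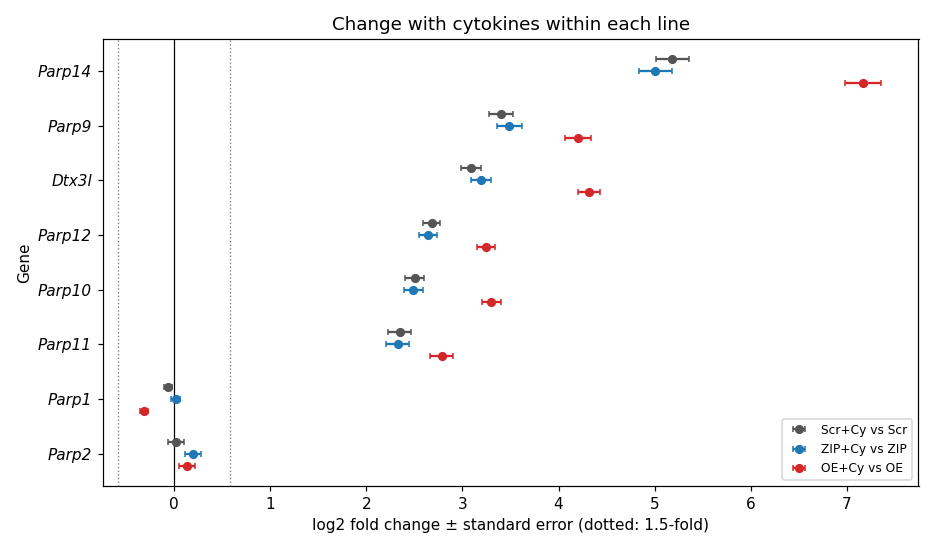
Log2 fold change with cytokines within each line (x axis) for each of the 8 genes (y axis), as estimate ± SE from the model over 24 libraries; dotted lines mark a 1.5-fold change. The 6 interferon-linked genes lie between 2.33 and 7.17, with the OE estimate to the right of the other 2 lines, and Parp1 and Parp2 lie within the dotted lines.

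ZIP, the line with the inhibitor of miR-146a-5p, was compared with Scr, and how far the microRNA was inhibited was not measured here. No member was called without cytokines, where 12.2% of all genes were called, or with them, where 12.6% were. Without cytokines, log2 differences of the 8 genes ran from −0.16 (Dtx3l) to 0.20 (Parp14), with adjusted p values of 0.198 to 0.65. Parp12 was the only member whose untreated libraries did not overlap, at 28.9, 29.1, 28.8 and 31.9 CPM in ZIP, above Scr (log2 difference 0.12, adjusted p = 0.363). Libraries separated in that direction for 13.3% of all genes. The Parp14 value rested on 1 library, the ZIP replicate at 37.1 CPM, and was −0.06 without it. With cytokines, log2 differences ran from −0.12 (Parp10) to 0.10 (Parp2), with adjusted p values of 0.35 to 0.964. The widest 95% interval was that of Parp14, from −0.28 to 0.32. The cytokine response of ZIP minus that of Scr passed the interaction test (adjusted p under 0.05, no fold change limit) for none of the 8 genes and 0.0565% of all genes. The differences in response ran from −0.18 (Parp14) to 0.18 (Parp2), with adjusted p values of 0.867 to 1. With the replicate number as a block in the model, 45 genes in place of 10 passed this test, again without a member.

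Before treatment, OE differed from Scr most in Parp14. It was 0.421-fold of Scr (log2 fold change −1.25, SE 0.163, adjusted p = 6.67e-07), the only member called lower, where 13.4% of all genes were. Without the highest Scr library the value was −1.11. No member was called higher, where 10.4% of all genes were. Differences under the fold change limit were −0.43 for Parp11 (SE 0.12, adjusted p = 0.00435), −0.28 for Parp10 (adjusted p = 0.0196), −0.26 for Dtx3l (adjusted p = 0.0331) and 0.32 for Parp12 (SE 0.0909, adjusted p = 0.00457). Libraries of OE and Scr did not overlap for Parp14, Parp11, Dtx3l and Parp1, all lower in OE, as for 23.7% of all genes. Parp9 differed by −0.22 (95% interval −0.48 to 0.03, adjusted p = 0.134) and Parp2 by 0.15 (adjusted p = 0.139).

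After treatment, 3 members were called higher in OE+Cy than in Scr+Cy, against 12.7% of all genes. Dtx3l was 1.96-fold higher (log2 fold change 0.97, SE 0.0956, adjusted p = 7e-09), Parp12 1.86-fold (0.89, SE 0.0864, adjusted p = 4.85e-09) and Parp14 1.66-fold (0.73, SE 0.144, adjusted p = 0.000148). Parp9 and Parp10 lay below the fold change limit at 1.49-fold (0.58, SE 0.113, adjusted p = 0.000134) and 1.44-fold (0.52, SE 0.0879, adjusted p = 2.19e-05), although their OE+Cy libraries were all above those of Scr+Cy. Libraries separated in this direction for 22.5% of all genes. With the replicate number as a block, the Parp9 estimate was 0.59 and passed the limit. Parp11 stood at nearly the same level in both groups, with a difference of 0.01 (95% interval −0.23 to 0.24, adjusted p = 0.974). Parp1 was 0.722-fold of Scr+Cy (−0.47, SE 0.0438, adjusted p = 2.6e-09), within the limit but with all 4 libraries below, as for 23.7% of all genes, and Parp2 differed by 0.27 (SE 0.0846, adjusted p = 0.00987).

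**Figure D3:**
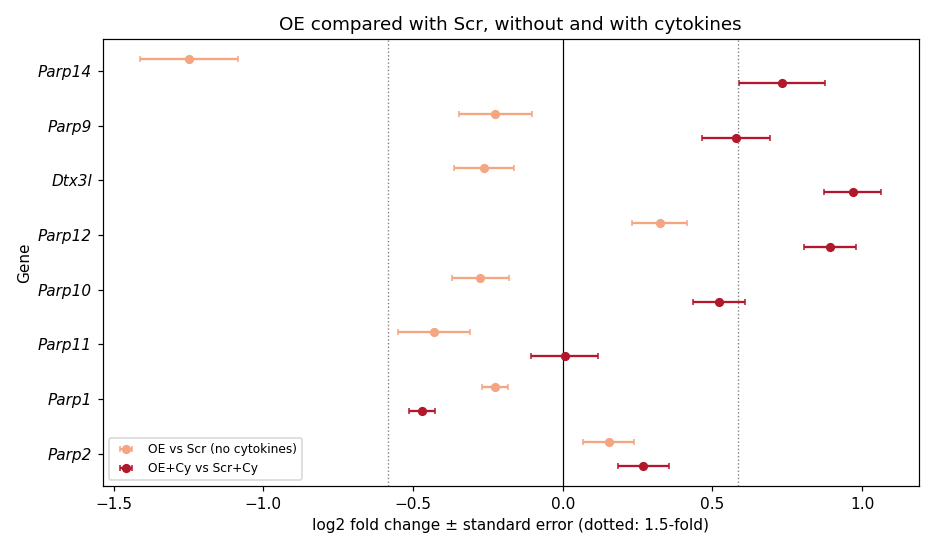
Log2 fold change of OE against Scr (x axis) for each of the 8 genes (y axis), without cytokines (pale) and with cytokines (dark), as estimate ± SE; dotted lines mark a 1.5-fold change. Parp14 crosses from −1.25 to 0.73, Dtx3l from −0.26 to 0.97, and Parp1 lies below 0 in both comparisons.

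The difference between the cytokine responses of OE and Scr was tested as an interaction. Of the 6 interferon-linked members, 5 passed the test (adjusted p under 0.05) with a larger response in OE, as did 9.64% of all genes. The median difference of the 6 was 0.80 on the log2 scale, against 0.00 over all genes. The response of Parp14 was 3.95-fold larger (log2 difference 1.98, SE 0.218, adjusted p = 1.97e-06) and that of Dtx3l 2.35-fold larger (1.23, SE 0.138, adjusted p = 2.69e-06). Parp9 followed at 1.75-fold (0.80, SE 0.167, adjusted p = 0.00131), Parp10 at 1.74-fold (0.80, SE 0.13, adjusted p = 0.000141) and Parp12 at 1.48-fold (0.57, SE 0.125, adjusted p = 0.00214). For Parp14, OE was below Scr before treatment (−1.25) and above it after treatment (0.73), whereas Parp12 was above Scr at both times (0.32 and 0.89). Parp11 had a difference of 0.44 (SE 0.164, adjusted p = 0.0637), which passed the test with the replicate number as a block (0.44, SE 0.111, adjusted p = 0.0053) and without the lowest OE+Cy library (0.53, adjusted p = 0.0139). Parp1 was the only member whose cytokine difference was lower in OE than in Scr (−0.31 against −0.07, difference −0.24, SE 0.0617, adjusted p = 0.00631). Of all genes, 10.3% passed the test in this direction. Parp2 had a difference of 0.12 (adjusted p = 0.558). In the same libraries, 5 of 7 β cell markers also passed the test with a lower cytokine difference in OE than in Scr (Pdx1 −0.90 against −0.10, Ins1 −0.72 against −0.01). Their part in these results was not tested.

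The treated libraries of replicate number 1 tended to be the lowest for the interferon-linked members. This held for 6 of 6 members in Scr+Cy, where replicate 1 lay 14.6% to 26.5% below the mean of the other 3 libraries. It held for 6 of 6 in ZIP+Cy (17.2% to 26% below) and for 5 of 6 in OE+Cy (3.85% to 25.4% below over the 6 members). Among all genes called higher with cytokines, replicate 1 was the lowest for 41.6%, 54.5% and 49.4% in Scr, ZIP and OE. In Scr, replicate 4 was the lowest for nearly as many of these genes (37.8%). The member calls with cytokines remained 6 when any of the libraries compared was left out.

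The seed of miR-146a-5p (bases 2 to 8, in capitals) and its site in a member are shown because the lines were built to alter this microRNA. Its mature sequence (RefSeq, GRCm38.p6, chr11:43374435-43374456, minus strand) pairs through this seed with AGTTCTC.
mmu-miR-146a-5p: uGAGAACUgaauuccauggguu
Parp1 3′UTR site: aaagggctatAGTTCTCaattaaaatg
In the longest annotated 3′UTR of each gene (GENCODE M21), this site occurred in Parp1 alone of the 8 members, at base 693 of 723, and in 11.2% of 21020 genes. Untreated Parp1 was 0.856-fold of Scr in OE (log2 difference −0.22, SE 0.0436, adjusted p = 0.00013) and 0.947-fold in ZIP (−0.08, SE 0.0436, adjusted p = 0.198), both within the fold change limit. Of the 7 members without a site, Parp14, Parp11, Parp10, Dtx3l and Parp9 had untreated OE estimates below Scr (−1.25, −0.43, −0.28, −0.26 and −0.22). Those of Parp12 and Parp2 lay above Scr (0.32 and 0.15). For Parp9 and Parp2 the adjusted p values were 0.134 and 0.139 in edgeR. Whether the site had an effect was not tested.

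The ratio of Parp9 to Dtx3l reads within a library does not depend on depth or scaling. Without cytokines it lay between 64.2% and 75.9% in all 12 libraries. In Scr+Cy it was 81%, 83.1%, 84.7% and 88.5%, and in ZIP+Cy 82.6%, 79%, 84.1% and 94.1%, above every untreated library. In OE+Cy it was 64.3%, 63.5%, 59.6% and 71.4%, below every other treated library. On the log2 scale the ratio went from −0.56 ± 0.0764 to −0.25 ± 0.0535 in Scr (SD, n = 4, difference 0.31, two-sided exact permutation p = 0.0286, adjusted over the 3 lines 0.0429). In ZIP it went from −0.54 ± 0.108 to −0.24 ± 0.107 (difference 0.30, exact permutation p = 0.0286, adjusted 0.0429). In OE it went from −0.52 ± 0.0889 to −0.63 ± 0.108 (difference −0.11, exact permutation p = 0.171). The smallest p this design can give is 0.0286. With libraries paired by number it is 0.125, which all 3 lines reached: the ratio was higher with cytokines in 4 of 4 pairs in Scr and ZIP and lower in 4 of 4 pairs in OE. In ZIP, the adjusted exact permutation p was 0.0857 when ZIP+Cy replicate 1, 3 or 4 was left out. The difference between the lines was not tested. Reads from the shared exon could enter both genes.

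**Figure D4:**
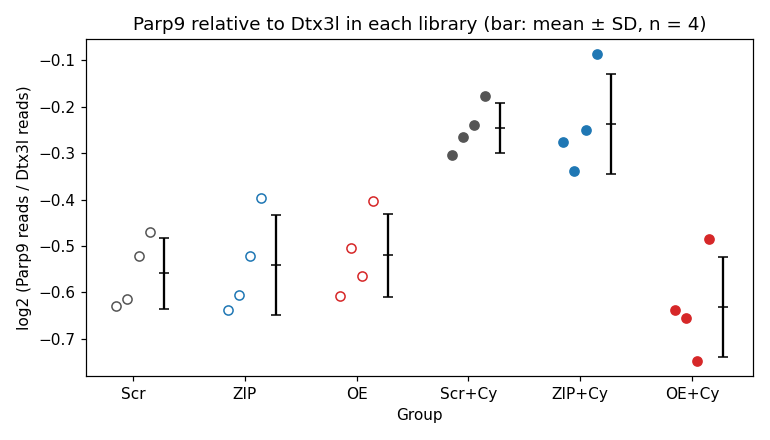
Log2 ratio of Parp9 to Dtx3l reads (y axis) in each library, by group (x axis); open points are without and filled points with cytokines, and bars are mean ± SD of 4. Scr+Cy (mean −0.25) and ZIP+Cy (−0.24) sit above the untreated groups (−0.56 to −0.52), and OE+Cy (−0.63) sits below the other treated groups.

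Parp14 (chr16:35832878-35871382, minus strand) lies 67088 bp from Parp9 in start position, so 3 of the 8 members are neighbours. The other members lie apart: Parp1 on chromosome 1 (180568891 to 180600999), Parp2 on chromosome 14 (50807916 to 50821301), Parp10 on chromosome 15 (76232995 to 76243440), and Parp11 (127446840 to 127494261) and Parp12 (39086412 to 39118349) on chromosome 6. Within 200 kb of the Parp9 start, 7 other genes were listed, of which Csta1 was near the floor (group means of at most 0.0257 CPM). None of the 7 was called higher with cytokines in any line. Of all genes, 5.96%, 6.12% and 11.8% were called higher in Scr, ZIP and OE, so few calls among 7 genes are usual. Kpna1, the nearest of the 7 with its start 44893 bp away, encodes a nuclear import factor. Under the fold change limit, Kpna1 was lower in Scr, ZIP and OE (−0.27, −0.20 and −0.35, adjusted p = 0.0115, 0.0496 and 0.000371 in edgeR). Fam162a was the neighbour called lower, in ZIP (log2 fold change −1.08, adjusted p = 0.0443) and OE (−1.80, adjusted p = 0.00102). Exons of Parp10 shared 205 bp with Plec, 4.8% of its length, and those of Parp14 110 bp with Gm49730, 1.18% of its length.

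Patterns over the 6 group means were compared by the root mean square difference of centred log2 levels, over 12669 genes. This measure describes likeness over 6 points and was not tested. It was not scaled for the size of a gene's change, so genes with a wide range, such as Parp14, tend to larger values. Parp9 and Dtx3l differed by 0.15, and both were nearest to Oas1b (0.11 each) and Rnf213 (0.14 each), an oligoadenylate synthetase family gene and a large interferon-induced ubiquitin ligase. Parp12 was nearest to Nmi (0.06), an interferon-induced gene, and Parp10 to Ifi35 (0.07), the binding partner of Nmi. Parp11 was nearest to Rhbdf2 (0.10) and Mvp (0.12). Parp14 had no neighbour as close, with Tap1, the peptide transporter of antigen presentation, at 0.18 and the RNA sensor Dhx58 at 0.19. Among the members, Parp10 and Parp12 were closest after Parp9 and Dtx3l (0.21), and Parp14 was at least 1.13 from every other member. Parp1 and Parp2 differed by 0.29.

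Of the 9 other ADP-ribosyltransferases listed, 3 were called higher with cytokines in each line and none was called lower. Of all genes, 5.96%, 6.12% and 11.8% were called higher in Scr, ZIP and OE. Parp3, which acts in DNA break repair, rose by 2.31 (SE 0.131), 2.28 (SE 0.127) and 2.56 (SE 0.135) on the log2 scale in Scr, ZIP and OE, near the size of Parp11. Zc3hav1, the zinc finger antiviral protein also named Parp13, rose by 0.91, 0.96 and 1.09. Parp8 rose in Scr (0.74) and ZIP (0.76) and stood at 0.50 in OE, below the fold change limit, and its response was smaller in OE (log2 difference −0.24, adjusted p = 0.0363). Parp4, found in vault particles whose main protein is encoded by Mvp, rose in OE (0.79) and stood at 0.35 in Scr and 0.43 in ZIP, and its response was larger in OE (0.44, adjusted p = 0.000335). The tankyrases Tnks and Tnks2, Parp6, Parp16 and Tiparp were not called with cytokines in any line. Under the fold change limit, Parp6 was lower in Scr, ZIP and OE (−0.33, −0.44 and −0.21, adjusted p at most 0.000545 in edgeR). Tiparp was lower as well (−0.37, −0.42 and −0.46, adjusted p at most 0.00624). The median log2 fold change of the 9 genes was −0.05, −0.02 and −0.04.

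**Figure D5:**
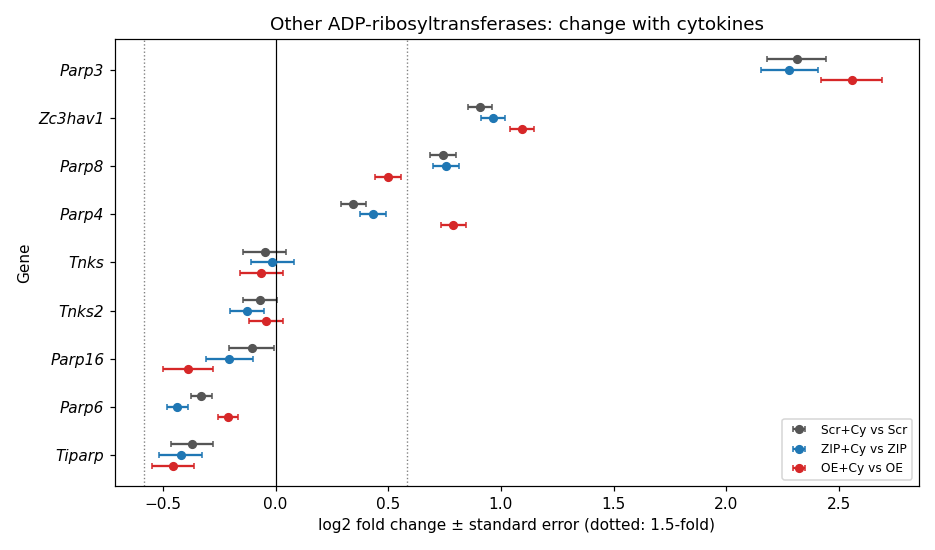
Log2 fold change with cytokines within each line (x axis) for the 9 other ADP-ribosyltransferases (y axis), as estimate ± SE; dotted lines mark a 1.5-fold change. Parp3 lies at 2.28 to 2.56 and Zc3hav1 at 0.91 to 1.09 in all lines, and the other 7 lie at 0.79 or below.

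Of 6 measured enzymes that remove ADP-ribose, none was called higher with cytokines in any line, where 5.96%, 6.12% and 11.8% of all genes were in Scr, ZIP and OE. Macrod1, a low-level gene at 4.14 ± 0.469 CPM in ZIP and 2.34 ± 0.334 CPM in ZIP+Cy, fell in ZIP (log2 fold change −0.82, SE 0.22, adjusted p = 0.00689). Its change in Scr was −0.48 and not called, and the responses of ZIP and Scr did not pass the interaction test (difference −0.34, adjusted p = 0.912). Of 6 Deltex and ADP-ribose-linked RING ligases, 1 was called higher with cytokines in Scr, 1 in ZIP and 2 in OE. Rnf114 rose in each line (0.95, 0.94 and 1.28), with a larger response in OE (0.33, adjusted p = 0.00975). Dtx4, at 0.51 ± 0.11 CPM in OE and 1.43 ± 0.408 CPM in OE+Cy, rose in OE (1.49, SE 0.423, adjusted p = 0.0058). Its changes in Scr (0.30) and ZIP (−0.62) were not called. The responses of OE and Scr did not pass the interaction test for Dtx4 (difference 1.18, adjusted p = 0.161). Of 9 DNA break repair partners of Parp1 and Parp2, only Chd1l, a remodeller that binds poly(ADP-ribose), was called with cytokines. It rose in each line (0.66, 0.85 and 0.90). Tdp1 differed with cytokines by −0.47 in OE and 0.02 in Scr (difference −0.49, adjusted p = 0.00495). Of 10 genes for NAD synthesis or consumption, only Nampt, the rate-limiting enzyme of NAD salvage, was called with cytokines. It rose in each line (1.12, 1.08 and 1.53). At the shares of all genes given above, single calls in lists of this size are usual. Nmnat3 differed with cytokines by 0.10 in OE and −0.29 in Scr (difference 0.39, adjusted p = 0.0425). Stat3 rose in each line (1.88, 1.55 and 2.06). Stat6, the factor with which Parp14 is known to act, rose in OE (0.71, SE 0.0962) and stood at 0.10 in Scr and 0.02 in ZIP, with a larger response in OE (0.60, SE 0.137, adjusted p = 0.00278).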

How the data were processed

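Bulk RNA-seq was measured in 24 libraries of 3 MIN6 lines, grouped by their labels. Estimated counts, as the authors deposited them, were unnormalized values for each gene (30.3% not whole numbers). The deposited normalized signal, those counts divided by 1 factor for each library, was not used further. Per the labels, the submitters' processing notes name FastQC, STAR 2.7.8a, Partek 11.0.24.0204, DESeq2 and the mm10 build. The quantification method and its use of strand are not given in the sources used here, so reads of overlapping or antisense genes could be divided between them. The authors kept genes with at least 10 reads in total.

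Estimated counts were rounded and fitted in edgeR 4.0.16 (R 4.3.3; TMM, glmQLFit and glmQLFTest) as 6 group means over all 24 libraries and 17696 genes. Calls needed a 1.5-fold change or more and a Benjamini-Hochberg adjusted p value under 0.05 over all genes; interactions had no fold change limit. SE is the log2 fold change divided by the square root of F, and 95% intervals use t with 18 degrees of freedom. Levels are CPM after TMM, per kb of GENCODE M21 exons where genes were compared. The read ratio of Parp9 to Dtx3l (0.5 added to each) was tested by exact permutation. Likeness of pattern used genes with a mean of at least 1 CPM over all libraries, and named the 3 nearest genes. Named genes are all 8 members, genes called in a cytokine comparison within a line or in an interaction (at most 4 per list), and neighbours of Parp9; ADP-ribosyltransferases that were not called and genes marking β cells or leukocytes are named beside them. A gene of these lists is not reported here. The members and lists were chosen with earlier results of these data known.

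Depth of 26657795 to 37168207 reads gave at least 287 reads for every member in every library; intervals cover the spread between libraries only. No libraries held identical values, and the calling procedure was tested on simulated data. Same-numbered libraries deviated together (correlation over 0.1 for every number, over 12670 genes) between treated and untreated libraries of each line. Correlations ran from 0.413 to 0.626 in Scr, 0.261 to 0.397 in ZIP and 0.162 to 0.455 in OE. The same held between ZIP and Scr (0.141 to 0.634 untreated, 0.191 to 0.37 treated). The pairing comes from the replicate numbers in the labels. The labels also carry a second tag that runs with the replicate number in every group, and its meaning is not given. The main model and the main permutation test did not use the pairing, which entered only as the replicate block, an alternative. Alternatives were DESeq2 1.42.0, its size factors in edgeR, filterByExpr, fitting only the groups compared, the replicate block, unadjusted p values and leaving out each library.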

Additional observations from a re-analysis of the deposited data

Results flagged for a closer look

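Of 48 sets of 4 libraries (8 genes in 6 groups), 6 held a library whose gap to the nearest other took most of the set's range, beyond Dixon's critical value at the 95% level; chance alone gives some such cases. Parp14 was high in Scr replicate 3 (26.5 CPM, others 19.8 to 20.2), in ZIP replicate 4 (37.1 CPM, others 19.8 to 21.6) and in OE+Cy replicate 3 (1415 CPM, others 1258 to 1279.7). Parp10 was low in ZIP replicate 3 (17.8 CPM, highest other 21.4) and high in OE replicate 1 (19.8 CPM, others 17.3 to 17.7). Parp12 was high in ZIP replicate 4 (31.9 CPM, others 28.8 to 29.1). ZIP replicate 4 was thus the high library for both Parp14 and Parp12.

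Of 16 member tests of a difference in cytokine response between lines, 6 passed, all of OE against Scr (edgeR, adjusted p under 0.05). In OE against Scr, 9.64% of all genes passed with a larger and 10.3% with a smaller response. In ZIP against Scr, 0.0565% of all genes passed in either direction. On the log2 scale the response in OE minus that in Scr was 1.98 for Parp14, 1.23 for Dtx3l, 0.80 for Parp9, 0.80 for Parp10, 0.57 for Parp12 and −0.24 for Parp1. Vector, clone and microRNA changed together between these lines and cannot be told apart.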

How the results depend on the processing

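The counts of members called stayed within 1.5 times the reported count under all alternatives. Of 432 log2 fold changes of members under settings with all libraries, 424 kept their side of the threshold and 8 newly passed it; of 704 with a library left out, 698 kept it and 6 newly passed. All 14 concerned Parp9 in OE+Cy against Scr+Cy (0.59 to 0.61, and 0.59 to 0.63 without Scr+Cy replicate 2, 3 or 4 or OE+Cy replicate 1 or 2) or Parp11 in the response of OE minus Scr (0.44 to 0.45, and 0.53 without OE+Cy replicate 1). No called estimate changed sign, and estimates that were not called did so 40 times.

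The number of genes whose response differed between ZIP and Scr, 10 in edgeR, was 41 in DESeq2 (26 with a positive and 15 with a negative difference), 45 with the replicate block and 1137 with unadjusted p values, and that between OE and Scr went from 3537 to 5601 with unadjusted p values. Between OE and Scr, correlations of same-numbered libraries were not over 0.1 for every number. They ran from −0.129 to 0.295 untreated and from 0.000631 to 0.165 treated. The replicate block was fitted for these comparisons too. Paired by replicate block, the Parp9 to Dtx3l log2 ratio kept its difference (0.31 in Scr, 0.30 in ZIP) at p = 0.125, the smallest exact permutation p that block allows. With a library left out, the difference ran from 0.29 to 0.34 in Scr, 0.25 to 0.35 in ZIP and −0.16 to −0.07 in OE. In ZIP the adjusted exact permutation p was 0.0857 without ZIP+Cy replicate 1, 3 or 4, where the difference was 0.31, 0.31 and 0.25. With so few libraries the permutation p moves in coarse steps. DESeq2 size factors moved the median log2 fold change of all genes by at most 0.025.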
